A study of Mus musculus with 24 samples.

Results

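Collagens are the fibre- and sheet-forming proteins of the extracellular matrix, and lysyl oxidases are secreted copper enzymes that cross-link collagen and elastin. The genes described here are all those whose symbol in the platform's annotation has the form Col, number, a, number, together with Lox and Loxl1 to Loxl4, each represented by whichever of its probe sets was brightest on average across the 24 arrays. This gave 46 of 18193 genes. They comprise 11 fibrillar collagens, 8 basement membrane collagens (6 type IV chains, Col15a1 and Col18a1), 23 other collagens and 4 lysyl oxidases. Loxl2, whose 2 probe sets each carry several symbols, was not analysed here, nor were Col6a6 and Col28a1.

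Values are log2 intensities from 24 mouse arrays, 3 in each of 8 groups of cultured retinal endothelial cells. The donors were adults of both sexes on a C57Bl6/129 mixed background. Growth of all lines rests on the temperature-sensitive form of SV40 large T, expressed under the gamma-interferon-responsive H2Kb promoter, and RNA was taken at 37 °C. The cells were Fz4-/-, that is, without frizzled-4, the receptor of the secreted ligand Norrin, or wild type. Each genotype was grown alone on Matrigel or on gelatin, or mixed with Norrin-expressing or control HEK293 cells, a human embryonic kidney line. Matrigel, an extract rich in basement membrane proteins, was used for 6 h, preceded by 24 h of starvation at 1% serum. No serum reduction is given for gelatin, so the Matrigel comparison holds both the substrate and the serum. Co-culture RNA held about equal parts of mouse and human RNA per the labels, and mouse probe sets can also meet human transcripts there. The labels do not say whether the replicates of a group are separate cultures, nor how many lines or clones each genotype stands for, so p-values here speak for array-to-array spread alone, which may be technical.

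Fibrillar collagens such as types I, III and V assemble into the fibrils of connective tissue. Type IV chains form the network of the basement membrane, on which endothelial cells sit, with the α1 and α2 chains in every basement membrane. Procollagen chains are hydroxylated and folded in the endoplasmic reticulum, trimmed by secreted proteases and then cross-linked through the action of lysyl oxidases. Norrin binds frizzled-4 on retinal endothelial cells and signals through β-catenin, a pathway required for growth of the retinal vessels.

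The arrays fell into 3 sets by their median log2 value, 5.02 to 5.11 in single cultures, 3.21 to 3.31 in Fz4-/- co-cultures and 3.44 to 3.52 in wild type co-cultures. In co-culture each genotype lies in an array set of its own, so that genotype and set cannot be told apart, and a level set across these 3 sets is a description only. Fzd4, the deleted gene, read 4.61 to 5.50 in Fz4-/- against 8.44 to 9.09 in wild type cells on gelatin, and the groups did not overlap on any of the 4 conditions. The SD of gene differences between replicates 2 and 3 was 0.147 to 0.193 in 6 groups, against 0.299 to 0.354 for pairs that include replicate 1. Of 12 endothelial markers, 11 read above the array's median gene in every array of each single-culture group and of each Fz4-/- co-culture group, and 9 in each wild type co-culture group. The marker Vwf lay below the lower quartile in all groups but wild type with Norrin. Of 10 mural markers (pericyte and smooth muscle), 1 to 5 read above the median in a group, and of 7 fibroblast markers, 0 to 2, with Dcn and Thy1 the only ones. Of 5 Müller glia and astrocyte markers, Rlbp1 and Aqp4 lay below the lower quartile in all 8 groups, while Glul lay above the median in all 8. Of 5 retinal pigment epithelium markers, Tyrp1 lay below the lower quartile in all 8 groups. Best1 lay above the median in every group but the wild type single cultures. The calls among these 10 markers were Best1 between genotypes (0.91 on gelatin, 0.90 on Matrigel) and, for Matrigel against gelatin, Rpe65 (-0.53 in Fz4-/-, -0.63 in wild type) and Tyr (0.59 and 0.38) in both genotypes and Gfap (0.48) in wild type cells.

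Basement membrane and vessel-wall collagens were among the genes with a signal in the upper part of the array. Probe sets differ in affinity, so the level of each gene was set against the median of all 18193 genes on its own array and not against another gene. In the single cultures 9 to 11 of the 46 genes lay above the median in all 3 arrays of a group (19.6% to 23.9%), against 48.4% to 48.6% of all genes. In the co-cultures 17 to 20 did (37% to 43.5%), against 47.4% to 48.4% of all genes. In all 8 groups 8 genes did so, namely Col4a1, Col4a2, Col18a1, Col5a2, Col27a1, Col8a1, Col13a1 and Loxl4. Col4a1 lay 6.28 to 6.87 above the median on average in the single-culture groups and 5.25 to 6.61 in the co-culture groups. Col18a1, whose product gives rise to the angiogenesis inhibitor endostatin, lay 4.97 to 5.22 and 3.72 to 4.47 above it. Col15a1, its close relative, was below the median in every group, with 4.23 to 4.80 log2 in single cultures and 3.58 to 4.35 in co-cultures. Col1a1 and Col3a1, the chains of types I and III that mark connective tissue, were below the median in every array of all 8 groups.

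**Figure D1:**
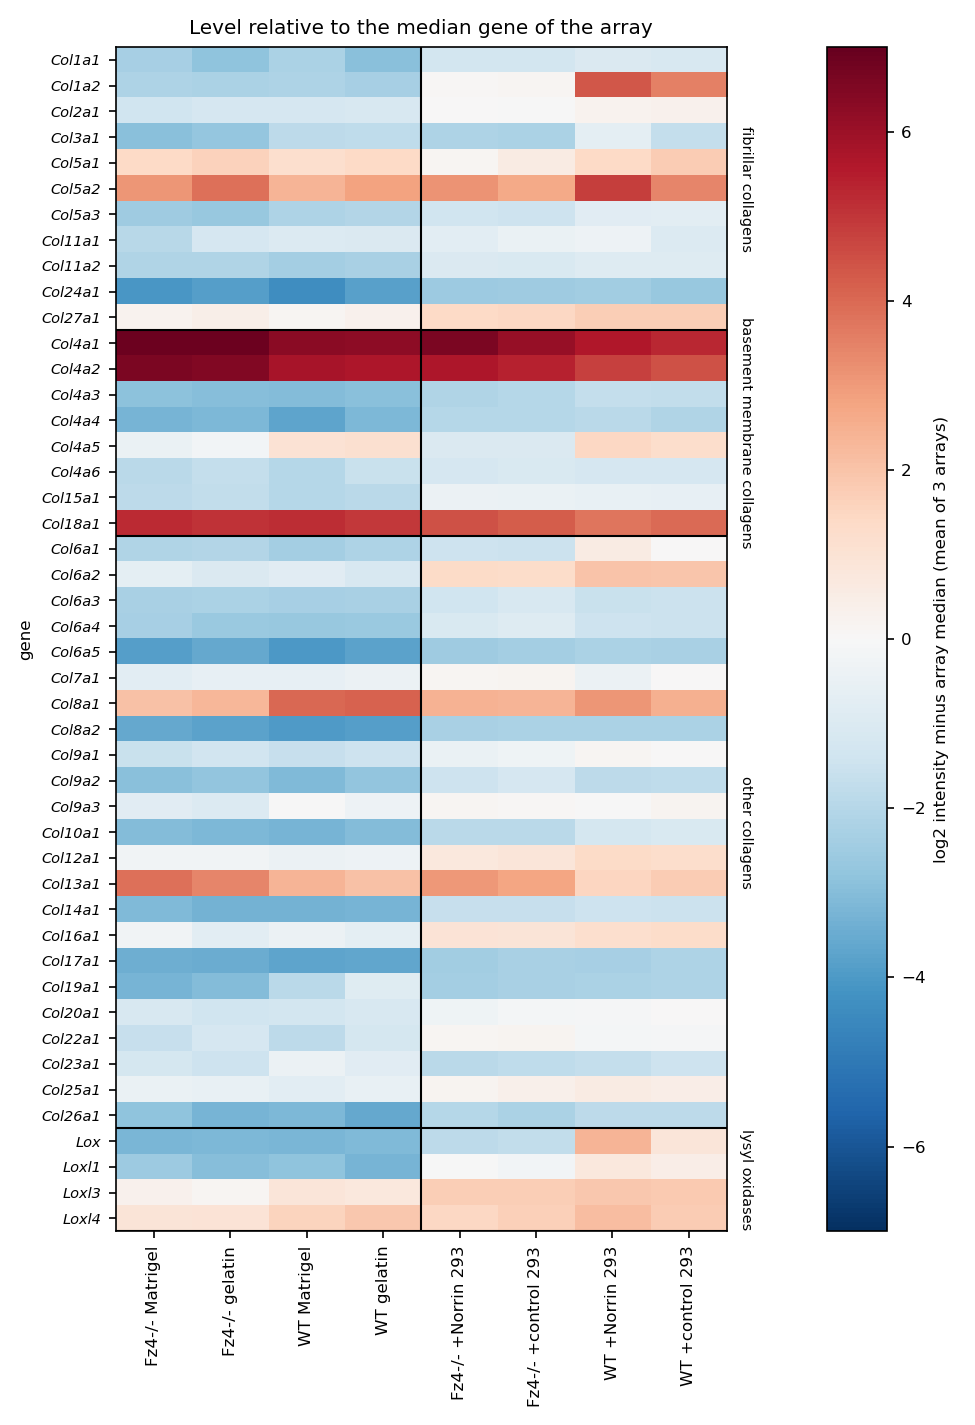
Mean level of each of the 46 genes (rows, by class) in each group (columns) as log2 intensity minus the array's median gene, over 3 arrays. The rows of Col4a1, Col4a2 and Col18a1 are red in all 8 columns, while Lox is red only in the wild type co-cultures, where Col1a2 is at its reddest too.

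Col1a2 and Lox, on their brightest probe sets, differed in level between the sets of arrays. Col1a2, the second chain of type I collagen, was at 4.34, 4.29 and 4.44 log2 in Fz4-/- cells with Norrin-expressing HEK293 cells and at 4.44, 4.50 and 4.31 with control HEK293 cells. The wild type co-cultures gave 8.39, 9.003 and 8.99 with Norrin and 7.86, 8.03 and 8.10 with control cells, and the 12 single cultures lay at 3.93 to 4.39. Lox, the founding lysyl oxidase, read 2.35, 2.47 and 2.41 with Norrin and 2.39, 2.56 and 2.71 with control cells in Fz4-/- co-cultures. In wild type co-cultures it was at 6.64, 7.05 and 6.85 with Norrin and at 4.99, 5.44 and 5.55 with control cells. For both genes the wild type co-cultures lay above every array of the other groups, single wild type cultures included, where Lox read 2.97 to 3.57. HEK293 cells were present in both genotypes' co-cultures, and the part of human transcripts in these readings was not tested. Of 7 fibroblast markers, Dcn, named after its values were seen, read 2.91, 3.30 and 3.08 in Fz4-/- cells with control HEK293 cells against 7.39, 7.74 and 7.69 in wild type cells with the same partner. Thy1 had the opposite order, at 4.74, 4.67 and 4.51 against 3.47, 3.85 and 3.85, and Lum, Dpt and Fap lay below the lower quartile in both. Because genotype coincides with array set there, no genotype difference was tested in co-culture.

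**Figure D2:**
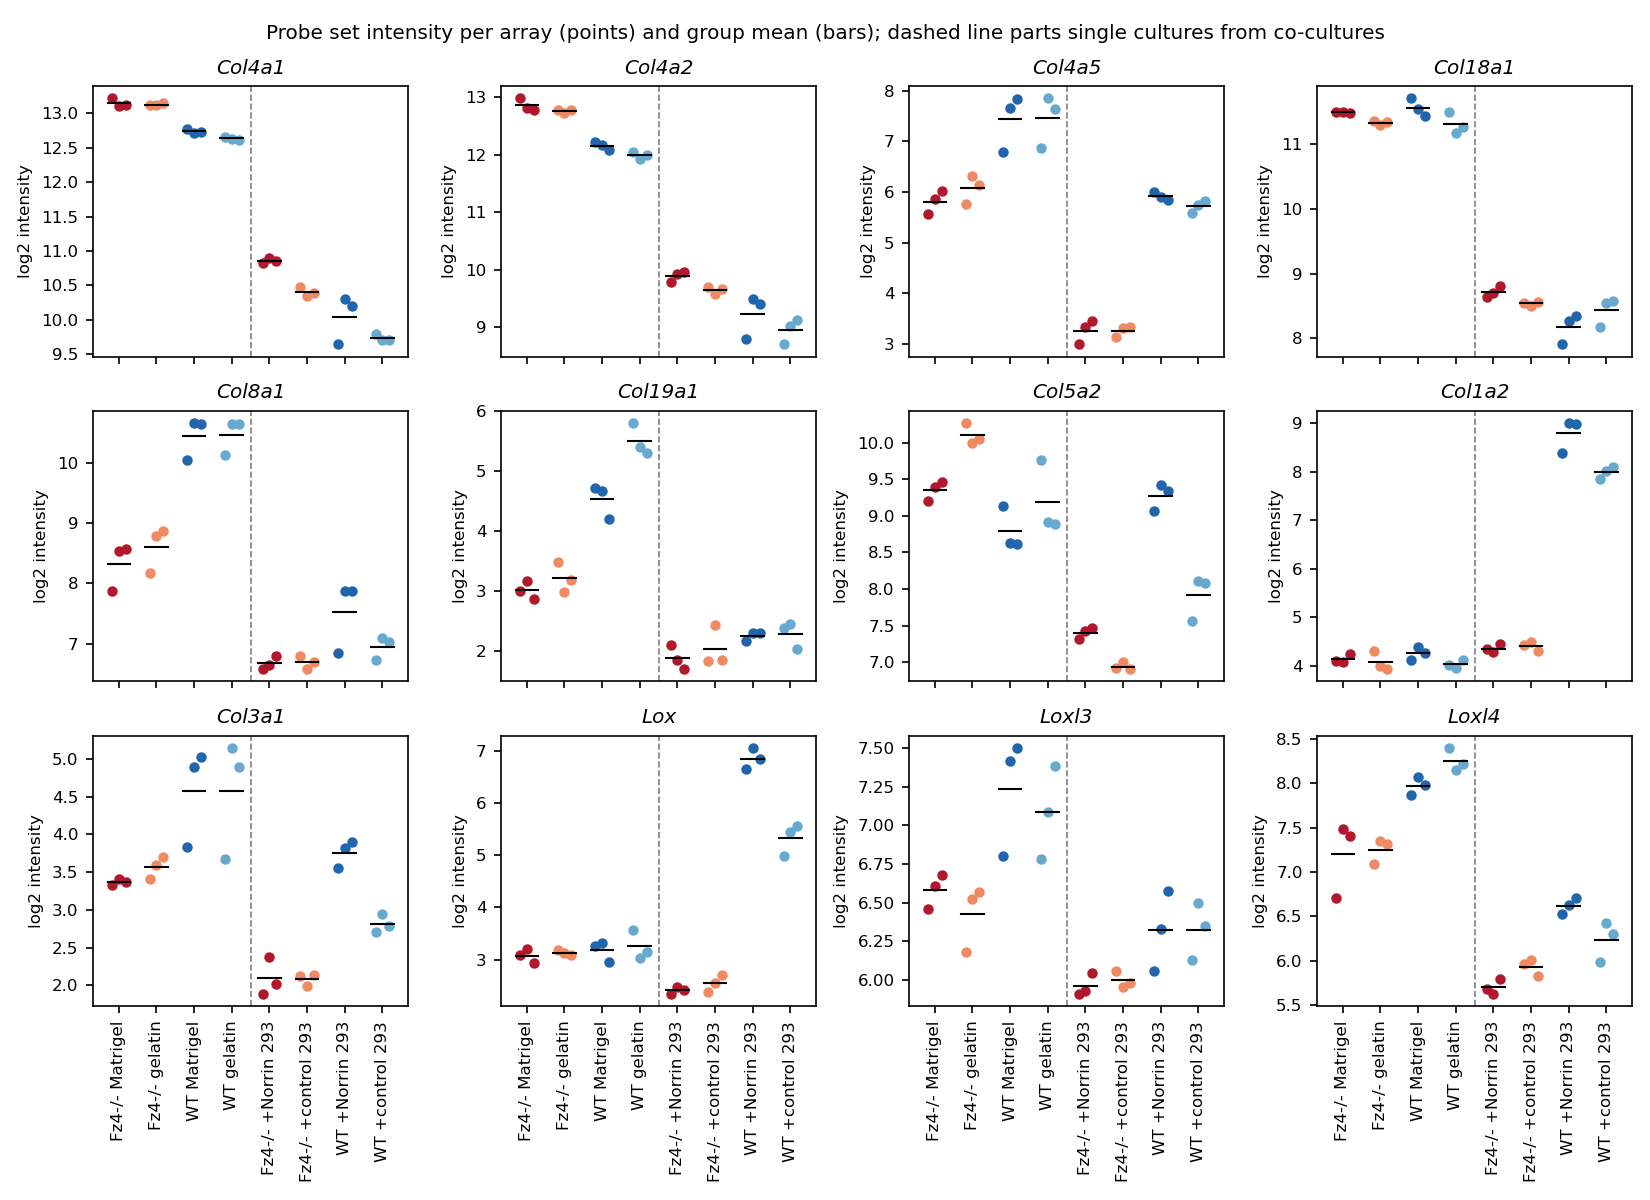
Log2 intensity of 12 genes in each array (points, in order of replicate number) with the group mean (bar), for the 8 groups; the dashed line parts single cultures from co-cultures, whose values lie on different scales. Col4a1 and Col4a2 sit higher in Fz4-/- than in wild type single cultures without overlap, Col8a1 and Col19a1 lower, and Lox and Col1a2 are highest in the wild type co-cultures.

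The cultures on gelatin-coated plates compare the genotypes without Matrigel or HEK293 cells. There 9 of the 46 genes passed the test (limma, p adjusted by Benjamini-Hochberg over all 18193 genes, threshold 0.05). Of these, 3 were higher and 6 lower in Fz4-/- cells. Of all genes 14.9% passed, 7.21% higher and 7.73% lower. The α1 and α2 chains of type IV and the α2 chain of type V were higher, and Col4a5, Col5a3, Col8a1, Col19a1, Loxl3 and Loxl4 were lower. By class, 2 of 8 basement membrane collagens rose and 1 fell, 1 of 11 fibrillar collagens rose and 1 fell, 2 of 23 other collagens fell, and 2 of 4 lysyl oxidases fell. The median log2 difference of the 46 genes was -0.08, and that of all genes was -0.00. At an unadjusted p below 0.05 the count was 15 of the 46 genes against 26.5% of all genes, and 15 had groups that did not overlap against 32.6% of all genes. With the replicate number as a block, 14 of the 46 genes passed, 4 higher and 10 lower. Calls among all 18193 genes rose as well, from 2719 without the block to 4138 with it. On Matrigel 13 genes passed, 4 higher and 9 lower, against 15.7% of all genes, 6.91% higher and 8.77% lower, with a median of 0.02 for both the 46 genes and all genes. The count was 18 at an unadjusted p below 0.05 (28% of all genes) and 18 without overlap of the groups (32.7% of all genes). By class, 3 basement membrane collagens rose and 1 fell, 2 fibrillar collagens fell, 1 other collagen rose and 4 fell, and 2 lysyl oxidases fell. Both substrates shared 7 genes with the same sign, which is 77.8% of those called on gelatin and 53.8% of those called on Matrigel. The same overlap was not counted over all genes, so whether it is particular to the 46 genes is not known. In bulk RNA, fewer cells of a kind and less RNA per cell cannot be told apart.

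Col4a1 read 13.13, 13.12 and 13.15 log2 in Fz4-/- cells on gelatin against 12.66, 12.64 and 12.62 in wild type cells. The groups did not overlap, and the difference was 0.49 ± 0.07 (SE, n = 3 arrays per group, limma adjusted p = 0.00048). On Matrigel it read 13.22, 13.11 and 13.12 against 12.78, 12.72 and 12.73, a difference of 0.41 ± 0.07. Its partner Col4a2, with which its product forms the heterotrimer found in all basement membranes, was higher as well. Col4a2 read 12.78, 12.72 and 12.78 in Fz4-/- against 12.05, 11.93 and 11.998 in wild type cells on gelatin, a difference of 0.77 ± 0.08 (adjusted p = 5.57e-05). On Matrigel it read 12.98, 12.81 and 12.78 against 12.21, 12.16 and 12.09, a difference of 0.70 ± 0.08. These rises, all under 2-fold, passed without any 1 of the 12 arrays, and the second probe set of Col4a1 gave 0.79 on gelatin and 0.75 on Matrigel. Values of further probe sets are given throughout with p adjusted over all probe sets. Of 9 such probe sets for 7 of the genes called on gelatin, all 9 had the sign of the first and 7 passed; on Matrigel 14 of 15 had the same sign and 5 passed.

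Col4a1 and Col4a2 are neighbours on chromosome 8 that face away from each other, and their promoter windows are printed because both genes moved together. The windows cover 250 bases before to 50 bases after the RefSeq start site on GRCm38.p6. That of Col4a1 is chr8:11312777-11313076 on the minus strand and that of Col4a2 is chr8:11312555-11312854 on the plus strand, and they share 78 bases read on opposite strands. Capitals mark the CCAAT box core and the GC box on either strand, so each may also stand as its reverse complement.
Col4a1: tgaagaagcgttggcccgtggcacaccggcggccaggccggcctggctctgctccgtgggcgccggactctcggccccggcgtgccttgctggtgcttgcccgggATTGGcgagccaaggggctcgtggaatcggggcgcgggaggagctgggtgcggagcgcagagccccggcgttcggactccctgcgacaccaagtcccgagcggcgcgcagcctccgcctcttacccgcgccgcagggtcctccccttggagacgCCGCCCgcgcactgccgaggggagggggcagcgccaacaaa
Col4a2: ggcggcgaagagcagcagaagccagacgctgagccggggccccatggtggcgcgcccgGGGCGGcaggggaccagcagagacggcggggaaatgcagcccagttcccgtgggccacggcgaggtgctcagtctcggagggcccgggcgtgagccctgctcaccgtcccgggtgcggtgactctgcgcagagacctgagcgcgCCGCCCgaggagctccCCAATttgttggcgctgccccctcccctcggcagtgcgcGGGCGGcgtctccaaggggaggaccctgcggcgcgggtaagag
RefSeq windows were found for 34 of the 46 genes, 37 windows in all. The GC box, searched as GGGCGG on both strands, was in 62.2% of them against 35.7% of all 32851 windows. The CCAAT box core was in 35.1% against 37.4% of all windows, and the TATA box core, searched as TATAAA, in 13.5% against 13.6%. The median GC content was 60.0% in the 37 windows and 52.7% in all windows. The core of sites for TCF/LEF, the factors of β-catenin signalling, was searched in its T form as CTTTGAT, found in 2.7% of the 37 windows against 3.73% of all. Its A form, which ends in A in place of T, was in 10.8% against 5.14%. No motif overlapped another in the windows shown, and a match describes letters only.

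The other type IV chains did not follow this pair. Col4a5, on the X chromosome, was lower in Fz4-/- cells, at 5.77, 6.33 and 6.13 against 6.87, 7.85 and 7.64 in wild type cells on gelatin, a difference of -1.38 ± 0.29 (adjusted p = 0.00834). On Matrigel it read 5.56, 5.86 and 6.02 against 6.79, 7.66 and 7.85, a difference of -1.62 ± 0.29. Its second probe set differed by -1.23 and -1.06. Col4a5 lay above the median gene in no Fz4-/- group and in all 4 wild type groups. Its neighbour Col4a6, which is paired with it in several basement membranes, differed by -0.20 and -0.02 and did not pass. Col4a3 (-0.14 on gelatin, 0.01 on Matrigel) did not pass, and Col4a4 passed on Matrigel alone (0.34 ± 0.10, adjusted p = 0.0421) at 2.70 to 3.04 log2 on average, well below the median gene. The Col4a4 call was lost without 7 of the 12 arrays in turn, with adjusted p up to 0.137 without wild type Matrigel replicate 2. Col18a1 and Col15a1 differed by -0.07 to 0.06 and did not pass on either substrate.

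Among the other collagens the clearest falls were those of Col8a1 and Col19a1. Col8a1 encodes the α1 chain of type VIII, a short-chain network collagen made by endothelial cells and found under vessel endothelium. It read 8.17, 8.78 and 8.86 in Fz4-/- against 10.13, 10.64 and 10.65 in wild type cells on gelatin, a difference of -1.87 ± 0.25 (adjusted p = 0.000433). On Matrigel it read 7.87, 8.54 and 8.58 against 10.05, 10.66 and 10.64, a difference of -2.12 ± 0.25. The other probe sets of Col8a1 gave -1.92 and -1.67 on gelatin and -2.49 and -2.23 on Matrigel, all past the threshold. Replicate 1 was the lowest array of each single-culture group for Col8a1, but the groups did not overlap. Col8a2, the other type VIII chain, did not pass (0.04 and 0.23).

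Col19a1, a fibril-associated collagen of basement membrane zones, read 3.48, 2.99 and 3.19 in Fz4-/- against 5.80, 5.40 and 5.31 in wild type cells on gelatin, a difference of -2.28 ± 0.18 (adjusted p = 6.11e-06). On Matrigel the values were 3.01, 3.17 and 2.87 against 4.72, 4.67 and 4.20, a difference of -1.52 ± 0.18. All of these lie below the median gene, and the other probe sets differed by -1.18 and -0.14 on gelatin and by -0.47 and -0.02 on Matrigel. Its neighbour on chromosome 1, Col9a1, differed by 0.01 and -0.04. Col13a1, a transmembrane collagen, was higher in Fz4-/- cells, at 11.07, 9.73 and 9.57 against 9.502, 8.47 and 8.32 in wild type cells on Matrigel, a difference of 1.36 ± 0.42 (adjusted p = 0.049). Its call was lost without 8 of the 12 arrays in turn, up to adjusted p = 0.167 without wild type Matrigel replicate 3. On gelatin it read 10.23, 9.42 and 9.48 against 8.93, 8.09 and 8.20, a difference of 1.30 ± 0.42 that did not pass (adjusted p = 0.0601) but did with the replicate block (7.88e-05). Replicate 1 was the highest array of each single-culture group for this gene. Col23a1, also a transmembrane collagen, and Col9a3 fell on Matrigel by 0.95 ± 0.26 and 0.88 ± 0.24. Their calls were lost without 5 and 4 of the 12 arrays, with adjusted p up to 0.12 and 0.108. On gelatin they differed by -0.75 and -0.72, which did not pass but did with the replicate block (adjusted p = 0.0299 and 0.0117), as did Col20a1 at -0.33 (0.0341).

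Fibrillar collagens were split. Col5a2, which encodes the α2 chain of type V, a regulator of fibril diameter, read 10.27, 9.997 and 10.06 in Fz4-/- against 9.77, 8.91 and 8.89 in wild type cells on gelatin, a difference of 0.92 ± 0.22 (adjusted p = 0.0148). The call was lost when Fz4-/- gelatin replicate 1 (0.84, adjusted p = 0.053), wild type gelatin replicate 2 (0.78, 0.0676) or wild type gelatin replicate 3 (0.77, 0.0678) was left out. Its second probe set differed by 1.33 (adjusted p = 0.0025). On Matrigel Col5a2 read 9.20, 9.40 and 9.47 against 9.13, 8.63 and 8.61, a difference of 0.56 ± 0.22 that did not pass (adjusted p = 0.11) but did under 4 of 23 alternatives, the replicate block (0.046) among them. Col3a1, its neighbour on chromosome 1, differed in the opposite direction. It read 3.33, 3.41 and 3.37 in Fz4-/- against 3.83, 4.89 and 5.02 in wild type cells on Matrigel, a difference of -1.21 ± 0.36 (adjusted p = 0.0404). The call was lost without 7 of the 12 arrays, up to adjusted p = 0.148 without wild type Matrigel replicate 3. On gelatin Col3a1 read 3.40, 3.59 and 3.70 against 3.67, 5.14 and 4.89, a difference of -1.01 ± 0.36 that did not pass (adjusted p = 0.0867) but did under 5 of 22 alternatives, the replicate block (0.0142) among them. Wild type replicates 2 and 3 lay well above replicate 1 for Col3a1, and so they did for Dcn, which read 4.67, 6.87 and 6.93 in the same wild type Matrigel arrays. Between genotypes they did not go together. Dcn lay above the median gene in every Fz4-/- array on both substrates, where Col3a1 read 3.33 to 3.70. No link between them was tested.

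The remaining fibrillar members gave smaller or less stable differences. Col11a1, a minor fibrillar chain, read 4.79, 3.83 and 4.34 in Fz4-/- against 6.02, 5.07 and 5.19 in wild type cells on Matrigel, a difference of -1.10 ± 0.33 (adjusted p = 0.0431) that was lost without 8 of the 12 arrays. On gelatin it read 5.58, 4.70 and 5.05 against 5.89, 5.02 and 5.12, and did not pass. Col5a3 fell on gelatin by 0.66 ± 0.17 (adjusted p = 0.0203). It did not pass without Fz4-/- gelatin replicate 2 (-0.58, 0.0774) or wild type gelatin replicate 2 (-0.46, 0.0659). Col5a1, the other major type V chain, read 7.33 to 7.99 in Fz4-/- against 7.24 to 8.02 in wild type cells over both substrates and did not pass. Col1a1 (-0.01 and -0.26) and Col1a2 (0.05 and -0.12) did not pass either.

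Of the lysyl oxidases, Loxl4 and Loxl3 were lower in Fz4-/- cells on both substrates. Loxl4 read 7.09, 7.34 and 7.31 in Fz4-/- against 8.40, 8.15 and 8.22 in wild type cells on gelatin, a difference of -1.01 ± 0.17 (adjusted p = 0.0024). On Matrigel it read 6.71, 7.49 and 7.41 against 7.87, 8.07 and 7.98, a difference of -0.77 ± 0.17. Both calls held without any 1 of the 12 arrays. Loxl3 read 6.18, 6.53 and 6.57 against 6.79, 7.09 and 7.39 on gelatin, a difference of -0.66 ± 0.19 (adjusted p = 0.0406). On Matrigel it read 6.46, 6.61 and 6.68 against 6.80, 7.41 and 7.50, with the same difference of -0.66 ± 0.19. Each Loxl3 call was lost without 8 of the 12 arrays, up to adjusted p = 0.162 and 0.151 without wild type replicate 3 of that substrate. Lox (-0.12 and -0.11) and Loxl1 (0.16 and 0.15), both below the median gene in single cultures, did not pass.

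**Figure D3:**
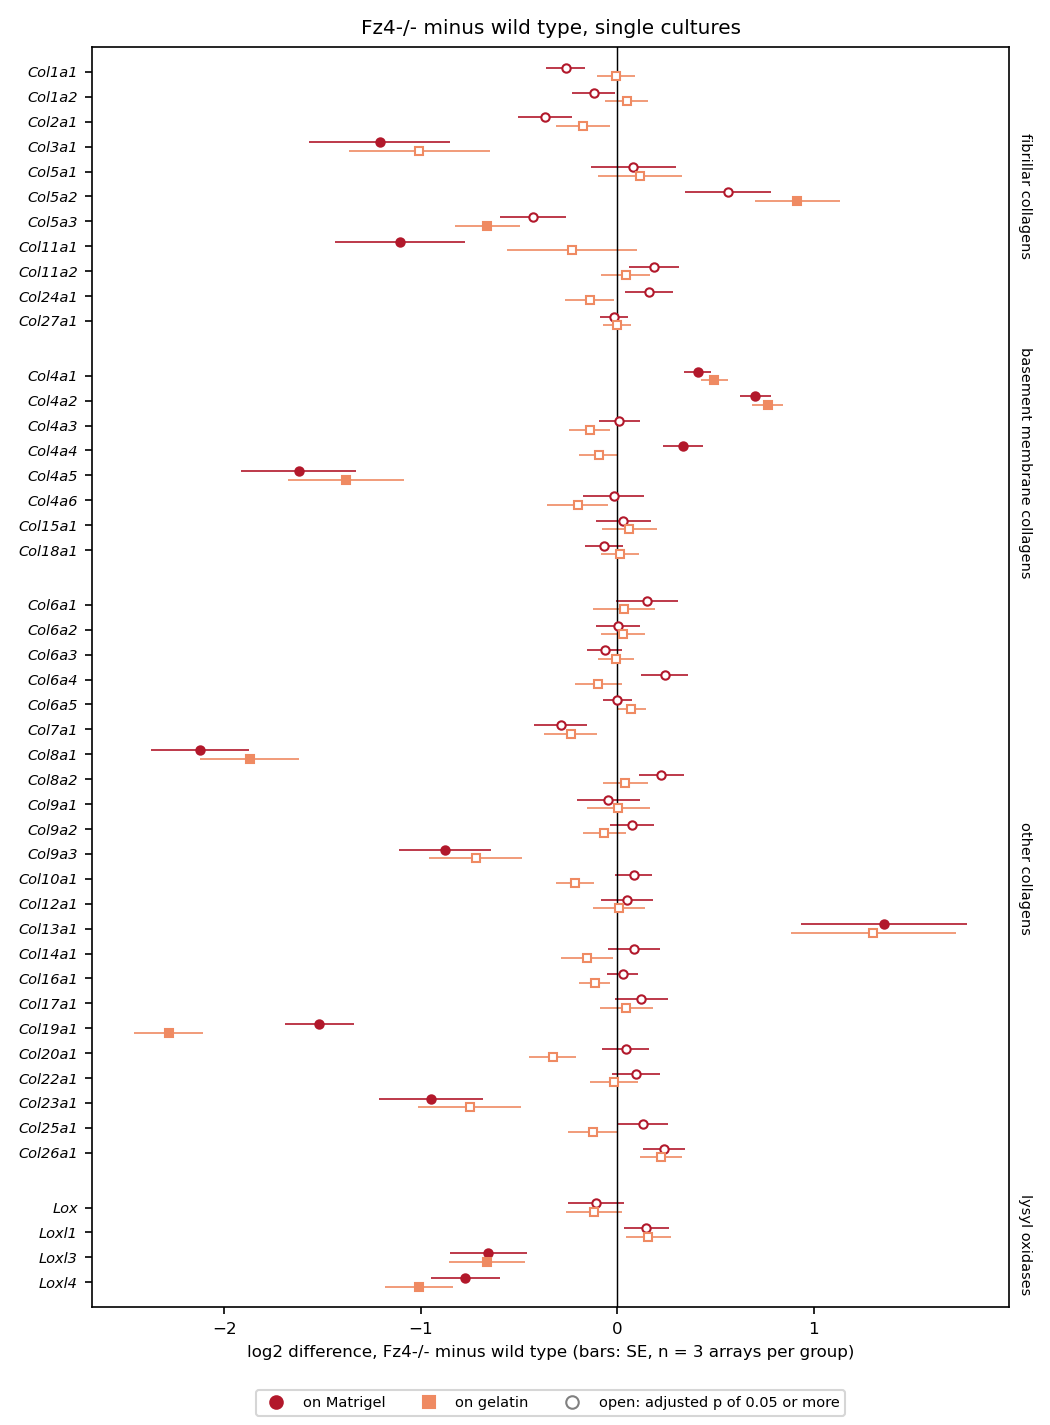
Log2 difference, Fz4-/- minus wild type, of the 46 genes on Matrigel (circles) and gelatin (squares) with SE bars, n = 3 arrays per group; filled symbols passed the adjusted p threshold. Col4a1 and Col4a2 lie right of 0 and Col4a5, Col8a1, Col19a1, Loxl3 and Loxl4 left of 0 on both substrates, all with filled symbols.

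Among genes whose products modify, process or bind collagen, P3h2, P3h4, Tll1 and Itga1 were called on both substrates. Of 19 collagen modification and folding genes, 3 rose and 0 fell in Fz4-/- cells on gelatin (15.8% against 14.9% of all genes), led by P3h2, a prolyl 3-hydroxylase, at 1.51 ± 0.19, with P3h4 (0.62 ± 0.11) and Mia3, which helps procollagen leave the endoplasmic reticulum (0.27 ± 0.08). On Matrigel P3h2 (1.09 ± 0.19) and P3h4 (0.54 ± 0.11) rose and P3h3 fell by 1.02 ± 0.29 (15.8% against 15.7% of all genes). The prolyl 4-hydroxylase subunit P4ha1, the lysyl hydroxylase Plod2 and the collagen chaperone Serpinh1 did not pass in any of the 8 comparisons. Of 8 procollagen processing genes, the protease Tll1 rose by 2.96 ± 0.43 and the enhancer Pcolce by 0.95 ± 0.25 on gelatin, a share of 25%. Tll1 read 7.81, 7.75 and 7.92 in Fz4-/- against 6.19, 4.01 and 4.39 in wild type cells, where replicate 1 was the highest without reaching the Fz4-/- arrays. On Matrigel Tll1 rose by 2.93 ± 0.43 and no other of the 8 passed, a share of 12.5%. Of 7 collagen receptors, the integrin subunit Itga1 fell by 1.03 ± 0.22 on gelatin and by 1.57 ± 0.22 on Matrigel, and no other passed, a share of 14.3% on each.

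Of 15 elastic fibre genes, whose products assemble with elastin and are partly cross-linked by lysyl oxidases, 3 rose and 5 fell on gelatin, a share of 53.3% against 14.9% of all genes. The list was chosen with earlier results of these data known, so its shares here and with Norrin are descriptions only. Efemp1 (2.60 ± 0.38) rose, while the latent TGF-β binding protein gene Ltbp2 (-2.43 ± 0.40) and the fibulin genes Fbln1 (-2.41 ± 0.30) and Fbln2 (-2.18 ± 0.21) fell. On Matrigel 2 rose and 5 fell, 46.7% against 15.7% of all genes, with Fbln1 at -2.79 ± 0.30. Eln, elastin itself, differed by 0.17 and 0.33 and did not pass. Cell type markers moved with genotype too. On gelatin 4 of 12 endothelial markers rose (Emcn, Erg, Robo4 and Tek), 1 of 10 mural markers rose (Acta2, 1.28 ± 0.18) and 1 fell (Notch3, -1.54 ± 0.19). Of 7 fibroblast markers Thy1 rose by 4.32 ± 0.22 and Pdgfra fell by 1.31 ± 0.26, and the log2 of the summed level of the 7 was 8.71 to 9.36 in Fz4-/- against 6.93 to 7.89 in wild type cells. On Matrigel it was 8.35 to 8.98 against 6.88 to 8.02, with Emcn, Kdr, Robo4, Tek and Thy1 higher and Notch3 and Pdgfra lower. The part of these markers in the collagen differences was not tested.

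On Matrigel with reduced serum, set against gelatin, the 46 genes were called about as often as all genes, with differences of less than 2-fold on their brightest probe sets. In Fz4-/- cells 8 of the 46 genes passed, 5 higher and 3 lower, against 19.7% of all genes, 7.91% higher and 11.8% lower. In wild type cells 9 passed, 5 higher and 4 lower, against 18.4% of all genes, 6.71% higher and 11.7% lower. At an unadjusted p below 0.05 the counts were 11 and 13, against 33.8% and 32.5% of all genes, and groups did not overlap for 15 and 17, against 39.1% and 38.5%. The medians of the 46 genes were 0.02 and -0.02, and those of all genes -0.05 and -0.05. Col1a1, Col6a2, Col16a1, Col26a1 and Loxl1 rose and Col22a1 fell in both genotypes. These 6 shared calls are 75% of those in Fz4-/- and 66.7% of those in wild type cells. The overlap over all genes was not counted here either. No interaction of genotype with Matrigel passed for the 46 genes in limma, where 0.0165% of all genes did, 0.0055% higher and 0.011% lower. Of the 46 genes, 4 had an unadjusted interaction p below 0.05, against 4.56% of all genes.

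Most of the genes called had low signal. Only Col5a2 among the 8 calls in Fz4-/- cells, and none of the 9 in wild type cells, lay above the median gene in all arrays of a group compared. Col5a2 read 9.20, 9.40 and 9.47 on Matrigel against 10.27, 9.997 and 10.06 on gelatin in Fz4-/- cells, a difference of -0.75 ± 0.22 (adjusted p = 0.0321). This call was lost when any 1 of the 6 arrays compared was left out (adjusted p 0.0582 to 0.0901). In wild type cells it differed by -0.40 ± 0.22 and did not pass, while its dimmer probe set fell by 2.03 in Fz4-/- and 1.45 in wild type cells, both past the threshold. Col4a1, Col4a2 and Col18a1 differed by 0.02 to 0.25 and did not pass in either genotype.

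Col1a1 read 4.09, 3.96 and 3.82 on Matrigel against 3.48, 3.35 and 3.49 on gelatin in Fz4-/- cells, a difference of 0.52 ± 0.10 (adjusted p = 0.00431). In wild type cells it read 4.25, 4.28 and 4.13 against 3.59, 3.31 and 3.44, a difference of 0.77 ± 0.10 (adjusted p = 0.00059). Its second probe set fell by 0.54 and 0.66, also past the threshold, so the sign for Col1a1 depends on the probe set. The same held in wild type cells for Col26a1, which rose by 0.46 ± 0.11 while its second probe set fell by 0.32 (adjusted p = 0.021), and the rise was lost without wild type Matrigel replicate 2 (0.0557) or gelatin replicate 3 (0.0516). Of 7 further probe sets of genes called in Fz4-/- cells 2 had the sign of the first, and of 10 in wild type cells 4 did. Loxl1 read 3.83, 3.80 and 3.62 against 3.26, 3.14 and 3.43 in Fz4-/- cells and 3.82, 3.495 and 3.48 against 3.23, 3.04 and 3.09 in wild type cells. It rose by 0.47 ± 0.11 and 0.48 ± 0.11, and its second probe set rose too (0.35 and 0.54). Its call was lost in Fz4-/- cells without replicate 2 of Matrigel (adjusted p = 0.0511) or gelatin (0.0622), and in wild type cells without gelatin replicate 2 (0.0539). Col16a1, a fibril-associated collagen, rose by 0.50 ± 0.08 in Fz4-/- and 0.35 ± 0.08 in wild type cells, and both calls held without any 1 array. Col6a2 rose by 0.38 ± 0.11 and 0.41 ± 0.11, calls lost without 6 and 4 of the 12 arrays (adjusted p up to 0.0861 and 0.0927). Col22a1, a collagen of tissue junctions, fell by 0.41 ± 0.12 and 0.52 ± 0.12, with the first lost without 4 of the 12 arrays (up to 0.124).

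Calls in a single genotype were not past the threshold for the difference between genotypes. Col19a1 fell in wild type cells, at 4.72, 4.67 and 4.20 on Matrigel against 5.80, 5.40 and 5.31 on gelatin (-0.97 ± 0.18, adjusted p = 0.00359), arrays that also enter its genotype differences. Col4a4 and Col24a1 fell there by 0.50 each, at 2.03 to 3.203 log2 on average, and the Col24a1 call was lost without wild type gelatin replicate 2 (adjusted p = 0.0502) or 3 (0.0675). In Fz4-/- cells Col6a5 fell by 0.29 ± 0.07, lost without 3 of the 12 arrays (adjusted p up to 0.0805). With the replicate block Col11a1 (-0.79, adjusted p = 0.000392), Col8a1 (-0.27, 0.0146), Col13a1 (0.41, 0.043) and Col6a4 (0.32, 0.0463) passed there as well. Lox, Loxl3 and Loxl4 did not pass in either genotype. Among the other lists 1 of 7 receptors, the integrin subunit Itga2, rose in both genotypes (0.36 ± 0.09 and 0.29 ± 0.09), a share of 14.3% in each. Of 19 modification genes P3h2 fell by 0.70 ± 0.19 in Fz4-/- cells (5.26%) and none passed in wild type cells in limma, with 1 at an unadjusted p below 0.05. Of 15 elastic fibre genes 1 rose and 1 fell in Fz4-/- cells, a share of 13.3%. In wild type cells 3 rose, among them Fbln2 (0.74 ± 0.21), and 1 fell, a share of 26.7%. Of all genes 19.7% passed in Fz4-/- and 18.4% in wild type cells. None of 8 processing genes passed in limma in either genotype, with 1 at an unadjusted p below 0.05 in each. Of 10 mural markers 2 fell in each genotype (20%), among them Acta2 by 1.80 ± 0.18 in Fz4-/- and 0.93 ± 0.18 in wild type cells. Of 12 endothelial markers 2 rose in each (16.7%), among them Tek by 0.98 ± 0.12 and 0.80 ± 0.12. The part of these markers in these differences was not tested.

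With Norrin-expressing HEK293 cells, set against control HEK293 cells, a group of fibrillar collagens and Lox were higher in wild type cells. In Fz4-/- cells none of the 46 genes passed in limma, while 0.456% of all genes did, 0.214% higher and 0.242% lower. At an unadjusted p below 0.05 there were 4, against 8.54% of all genes, and groups did not overlap for 9, against 19.5%. Of the 46 genes 8 passed in wild type cells, 6 higher and 2 lower, against 9.57% of all genes, 5.39% higher and 4.18% lower. At an unadjusted p below 0.05 there were 13, against 21.3% of all genes, and groups did not overlap for 13, against 21.4%. By class, 4 of 11 fibrillar collagens rose and 1 fell in wild type cells, 1 of 23 other collagens rose and 1 fell, and 1 of 4 lysyl oxidases rose. None of the 8 basement membrane collagens passed there in limma, with 1 at an unadjusted p below 0.05. The medians of the 11 fibrillar collagens, the 46 genes and all genes were -0.02, -0.06 and -0.02 in Fz4-/- cells and 0.09, -0.01 and -0.02 in wild type cells. The interaction of genotype with Norrin passed for 4 genes, Lox, Col3a1, Col5a2 and Col1a2, all with a smaller difference in Fz4-/- cells, against 2.12% of all genes, 0.874% higher and 1.24% lower. At an unadjusted p below 0.05 there were 10, against 12.1% of all genes. The interaction compares differences taken within a genotype, and so within an array set. An offset between the sets drops out, but a difference in their scale cannot be told apart from an effect of genotype. Lox and Col3a1 also lay below the median gene in Fz4-/- co-cultures, where a difference may read smaller. Col1a2 lay only 0.13 above the median gene on average in Fz4-/- co-cultures with control HEK293 cells, so its difference may read smaller there too.

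On the brightest probe sets Lox and Col5a2 had the largest differences of the 46 genes in wild type cells, an order that depended on the probe sets. With a gene's probe sets averaged, Lox differed by 0.93 and Col5a2 by 1.73. Fz4-/- cells read 2.35, 2.47 and 2.41 with Norrin-expressing against 2.39, 2.56 and 2.71 with control HEK293 cells, a difference of -0.14 ± 0.14. Wild type cells read 6.64, 7.05 and 6.85 against 4.99, 5.44 and 5.55, a difference of 1.52 ± 0.14 (adjusted p = 1.38e-06). The interaction was -1.66 ± 0.20 (adjusted p = 0.00015), and both calls held without any 1 of the 12 arrays. A second Lox probe set gave -0.02 in Fz4-/- cells, 1.29 in wild type cells and an interaction of -1.31, the last 2 past the threshold, while another, dim on all arrays, gave -0.04 in Fz4-/- and -0.03 in wild type cells. In Fz4-/- co-cultures Lox lay 1.74 to 1.84 below the median gene. Loxl4 read 5.68, 5.63 and 5.80 against 5.97, 6.00 and 5.83 in Fz4-/- cells and did not pass. The wild type values were 6.52, 6.62 and 6.70 against 5.99, 6.43 and 6.30, a difference of 0.38 ± 0.12 that did not pass (adjusted p = 0.0514) but did under 6 of 23 alternatives, the replicate block (0.0435) among them. Loxl1 (0.16 in Fz4-/- and 0.22 in wild type cells) and Loxl3 (-0.04 and -0.01) did not pass.

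Col5a2 read 7.31, 7.43 and 7.46 with Norrin-expressing against 6.92, 6.997 and 6.91 with control HEK293 cells in Fz4-/-, a difference of 0.46 ± 0.14 (adjusted p = 0.232) without overlap. The wild type arrays read 9.07, 9.41 and 9.34 against 7.56, 8.11 and 8.09, a difference of 1.35 ± 0.14 (adjusted p = 2.78e-06), also without overlap. The interaction was -0.89 ± 0.19 (adjusted p = 0.0186), and its second probe set gave 0.00 in Fz4-/- cells, 2.10 in wild type cells and an interaction of -2.10. The interaction was lost without 4 of the 12 arrays in turn. These were Fz4-/- Norrin replicate 1 (adjusted p = 0.058), Fz4-/- control replicate 2 (0.0603) and wild type Norrin replicates 2 (0.053) and 3 (0.0507). Col3a1, the type III chain encoded next to Col5a2, read 1.89, 2.38 and 2.02 against 2.12, 2.00 and 2.14 in Fz4-/- cells, a difference of 0.01. Wild type cells read 3.56, 3.81 and 3.90 against 2.70, 2.94 and 2.78, a difference of 0.95 ± 0.13 (adjusted p = 0.000104), and the interaction was -0.94 ± 0.19 (adjusted p = 0.00955). All of these lie below the median gene, and the second probe set of Col3a1 gave 0.20 in wild type cells and did not pass.

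Col1a2 differed by -0.06 ± 0.14 in Fz4-/- cells, at 4.34, 4.29 and 4.44 with Norrin-expressing against 4.44, 4.50 and 4.31 with control HEK293 cells. Wild type cells gave 8.39, 9.003 and 8.99 against 7.86, 8.03 and 8.10, a difference of 0.80 ± 0.14 (adjusted p = 0.00104) without overlap, and the interaction was -0.86 ± 0.20 (adjusted p = 0.0278). The second probe set gave 0.09 in Fz4-/- cells, 1.70 in wild type cells and an interaction of -1.61, the last 2 past the threshold, while another, dim on all arrays, gave 0.08 and -0.02. The interaction on the main probe set was lost without 9 of the 12 arrays in turn, up to adjusted p = 0.0844 without Fz4-/- control replicate 2. Col1a1, the other type I chain, read 3.62, 3.33 and 3.35 against 3.34, 3.26 and 3.43 in wild type cells and did not pass (0.09). The promoter windows of Col1a2 and Col3a1, shown because both genes rose with Norrin in wild type cells, are chr6:4505368-4505667 and chr1:45311288-45311587, each on the plus strand of GRCm38.p6 in RefSeq. Capitals mark the GC box, the CCAAT box core and the TATA box core, on either strand.
Col1a2: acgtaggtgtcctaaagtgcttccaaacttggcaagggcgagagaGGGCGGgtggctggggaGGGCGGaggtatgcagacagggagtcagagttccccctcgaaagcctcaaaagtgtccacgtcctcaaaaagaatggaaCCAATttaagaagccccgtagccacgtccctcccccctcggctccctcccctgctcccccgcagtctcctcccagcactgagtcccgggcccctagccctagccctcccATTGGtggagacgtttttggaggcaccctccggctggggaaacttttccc
Col3a1: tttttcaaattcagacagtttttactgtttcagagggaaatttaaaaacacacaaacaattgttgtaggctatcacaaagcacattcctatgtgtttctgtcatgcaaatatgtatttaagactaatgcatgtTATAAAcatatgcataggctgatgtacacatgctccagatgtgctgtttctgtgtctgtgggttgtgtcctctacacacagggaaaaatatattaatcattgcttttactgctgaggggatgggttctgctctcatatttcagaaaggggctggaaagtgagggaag
Neither window holds either form of the TCF/LEF core. The windows differ in base composition, with 61.0% GC for Col1a2 and 37.7% for Col3a1.

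The other responses to Norrin in wild type cells were smaller. Col11a1 read 4.19, 3.98 and 4.05 against 4.003, 3.17 and 3.34, groups that overlap, with a difference of 0.57 ± 0.16 (adjusted p = 0.0304). Its call was lost without 5 of the 12 arrays, up to adjusted p = 0.154 without wild type control replicate 2, and its interaction of -0.84 ± 0.23 did not pass (adjusted p = 0.0656). Col6a1, a chain of the microfibrillar type VI, rose by 0.53 ± 0.13 (adjusted p = 0.0112) and was lost without wild type Norrin replicate 3 (0.0506) or control replicate 3 (0.0636). Its neighbour Col6a2 differed by -0.00. Col5a1 read 4.16, 4.36 and 4.65 against 4.80, 4.95 and 4.81 in Fz4-/- cells, a difference of -0.46 ± 0.12 that did not pass. The wild type values were 5.76, 5.87 and 5.92 against 6.20, 6.39 and 6.26, a difference of -0.43 ± 0.12 (adjusted p = 0.0298). Its interaction was -0.03 ± 0.17, and its call in wild type cells was lost without 5 of the 12 arrays (up to 0.109). Col7a1, the collagen of epithelial anchoring fibrils, fell by 0.44 ± 0.13 and was lost without 6 of the 12 arrays (up to 0.157). Col8a1 read 6.84, 7.87 and 7.87 against 6.73, 7.09 and 7.02, a difference of 0.58 ± 0.20 that did not pass (adjusted p = 0.0773) but did under 5 of 23 alternatives, the replicate block (0.0316) among them.

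The basement membrane pair did not pass with Norrin in either genotype in the main fit. Col4a1 read 10.82, 10.90 and 10.86 with Norrin-expressing against 10.47, 10.35 and 10.39 with control HEK293 cells in Fz4-/- cells. The groups did not overlap, and the difference of 0.46 ± 0.14 passed under 3 of 23 alternatives. In wild type cells it read 9.64, 10.30 and 10.19 against 9.79, 9.70 and 9.71, a difference of 0.31 ± 0.14, with wild type Norrin replicate 1 below all control arrays. Col4a2 differed by 0.24 ± 0.16 in Fz4-/- and 0.28 ± 0.16 in wild type cells. In wild type cells Col4a1 and Col4a2 each passed under 2 of 23 alternatives. Col4a5 differed by -0.00 and 0.19, Col18a1 by 0.18 and -0.26 and Col15a1 by 0.02 and -0.01.

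**Figure D4:**
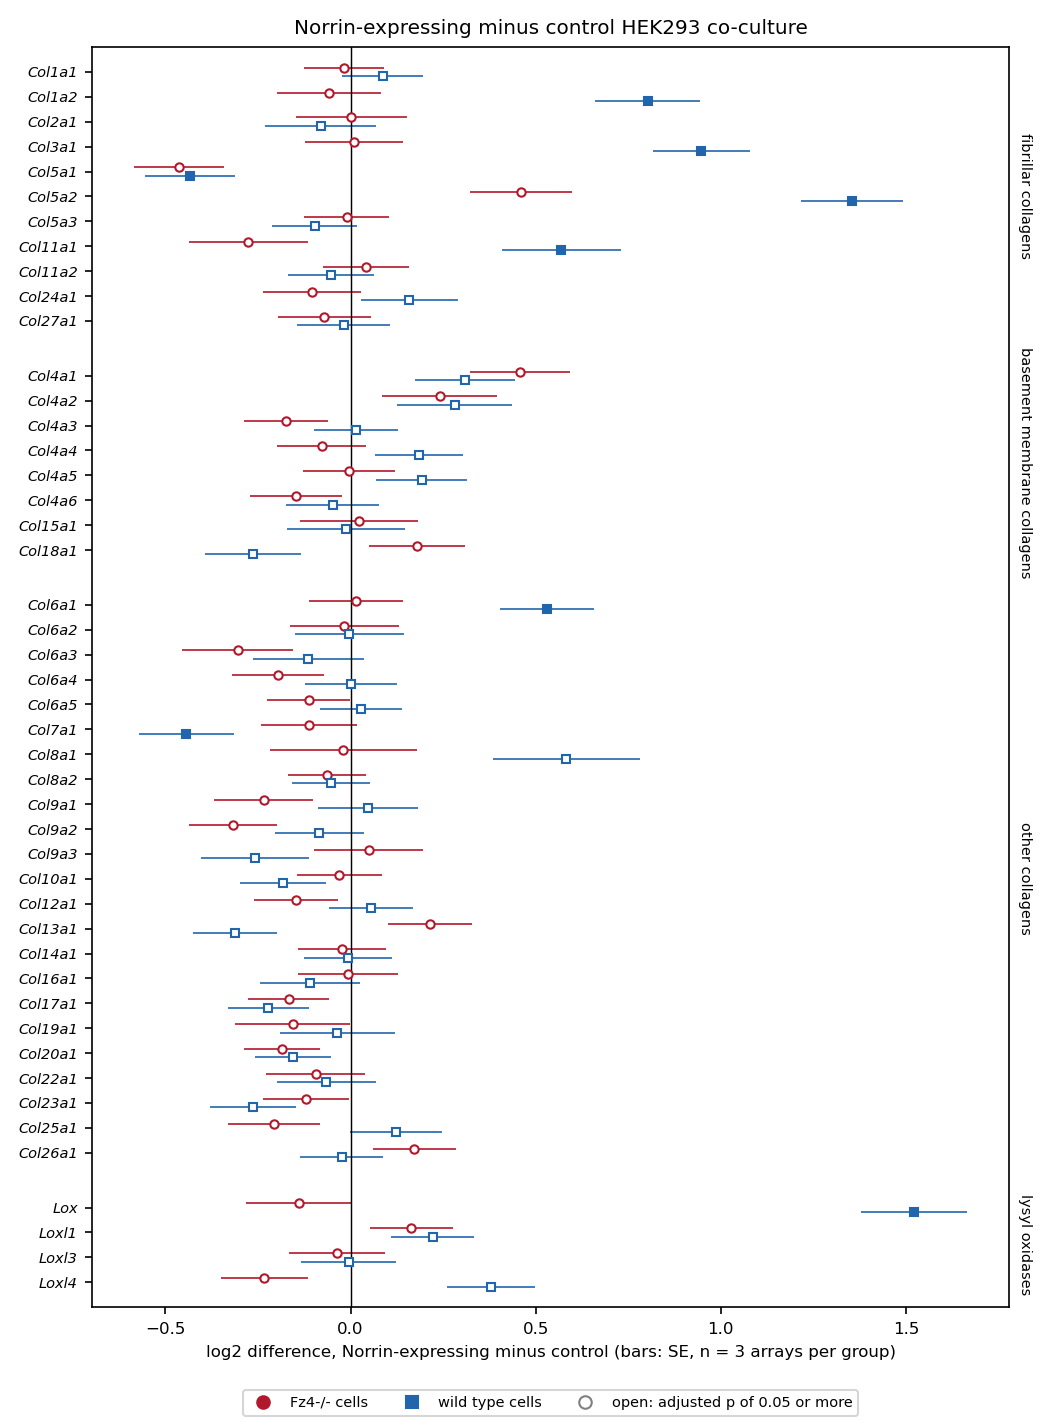
Log2 difference, Norrin-expressing minus control HEK293 co-culture, of the 46 genes in Fz4-/- (circles) and wild type cells (squares) with SE bars, n = 3 arrays per group; filled symbols passed the adjusted p threshold. Filled symbols are wild type only, with Lox, Col5a2, Col3a1 and Col1a2 farthest to the right, and no circle is filled.

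Elastic fibre genes, substrates and partners of lysyl oxidases, were called with Norrin as well. In Fz4-/- cells none of 15 passed in limma, with 4 at an unadjusted p below 0.05, and in wild type cells 5 rose and 1 fell, a share of 40% against 9.57% of all genes. Fbln5, which tethers elastin and Loxl1 in mouse elastic fibres, read 5.62, 6.12 and 6.44 in wild type cells with Norrin-expressing against 4.17, 4.06 and 4.17 with control HEK293 cells, a difference of 1.93 ± 0.15 (adjusted p = 1.28e-07). Eln, the elastin gene, read 5.98, 6.27 and 6.10 in the same wild type cells against 5.29, 5.35 and 5.41, a difference of 0.77 ± 0.11. Fbln2 (1.05 ± 0.17) and Efemp1 (0.86 ± 0.15) rose there as well. The interaction passed for these 4, at -1.28 ± 0.21 for Fbln5, -1.08 ± 0.25 for Fbln2, -0.93 ± 0.21 for Efemp1 and -0.87 ± 0.16 for Eln. Of 19 modification and folding genes in wild type cells, Fkbp14 (0.77 ± 0.16) and Crtap (0.62 ± 0.14), both linked to procollagen folding, rose and Tmem38b fell by 0.45 ± 0.11, a share of 15.8% against 9.57% of all genes. Of 8 processing genes Tll1 rose there by 0.85 ± 0.15 (12.5%), and of 7 receptors Mrc2 fell by 0.44 ± 0.13 (14.3%).

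Markers of cell types differed with Norrin in wild type too. Of 12 endothelial markers none passed in Fz4-/- cells in limma, with 4 at an unadjusted p below 0.05, and the log2 of their summed level was 11.75 to 11.89 with Norrin-expressing against 11.50 to 11.64 with control HEK293 cells. In wild type 10 of them rose, among them Cdh5 (1.06 ± 0.15), Esam (1.06 ± 0.11) and Tek (0.99 ± 0.12), a share of 83.3% against 9.57% of all genes, and the summed level was 10.92 to 11.20 against 10.15 to 10.58. Of 10 mural markers Acta2 rose (0.90 ± 0.12) and Notch3 fell (-0.46 ± 0.12) in wild type cells, with summed levels of 7.73 to 7.83 against 7.63 to 7.72. Of 7 fibroblast markers Thy1 fell in Fz4-/- cells (-0.71 ± 0.13), and Dcn fell in wild type cells, at 3.98, 5.13 and 4.98 with Norrin-expressing against 7.39, 7.74 and 7.69 with control HEK293 cells (-2.91 ± 0.22). The summed fibroblast level in wild type cells was 6.24 to 6.51 against 7.80 to 8.07, while Lum, Dpt and Fap lay below the lower quartile of the array in both groups of wild type co-cultures. The part of these markers in the rise of Lox and the fibrillar collagens was not tested.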

How the data were processed

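RNA of 24 mouse cultures in 8 groups of 3 was measured on Affymetrix arrays. The deposited values are log2 intensities summarized by RMA, per the submitters' processing notes, with no version given. Which arrays were normalized together is not given in the sources used here.

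Of 45101 probe sets, 64 controls, 932 with several symbols and 9160 with none were left out. Each of 18193 genes was read from its probe set with the highest mean. Groups were compared with limma 3.58.1 in R 4.3.3, with single cultures and co-cultures in separate fits of 12 arrays with 8 residual degrees of freedom. P-values were adjusted by Benjamini-Hochberg over all genes at a threshold of 0.05, for 8 comparisons. An exact permutation of 3 against 3 arrays cannot go below a two-sided p of 0.1, so none was used. The code was tested on simulated data. Promoter windows came from RefSeq.

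Values of every array are given for the genes among the 46 that passed with an absolute log2 difference of at least 1 in any comparison, and always for Col1a1, Col1a2, Col3a1, Col5a1, Col5a2, Col4a1, Col4a2, Col15a1, Col18a1 and the lysyl oxidases, in full or as a range. Others are named with a count or a neighbouring gene. In the modification, processing, receptor and elastic fibre lists up to 4 called genes per comparison were named by size, and always P4ha1, Plod2, Serpinh1 and Eln. The genes and lists were chosen with earlier results of these data known. Alternatives changed the probe set rule, the filter on low values, the arrays in the fit, each single array and a replicate block. Deviations of same-numbered arrays from their group means correlated at 0.10 to 0.72 in the comparisons of genotype, of Matrigel and of Norrin in wild type cells. For Norrin in Fz4-/- cells they correlated at -0.19 to 0.01. The main fits took no pairing from these numbers, and the replicate block was an alternative only. The number of arrays limits the precision.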

Additional observations from a re-analysis of the deposited data

Results flagged for a closer look

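The effect of Norrin-expressing against control HEK293 cells differed between the genotypes for 4 of the 46 genes, by the interaction term in limma (adjusted p, n = 3 arrays per group). Genotype coincides with array set in co-culture, so an effect of genotype and a difference in scale between the sets cannot be told apart. For Lox the difference was -0.14 in Fz4-/- cells and 1.52 in wild type cells, with an interaction of -1.66 (adjusted p = 0.00015). For Col3a1 the differences were 0.01 and 0.95, with an interaction of -0.94 (adjusted p = 0.00955). For Col5a2 they were 0.46 and 1.35, with an interaction of -0.89 (adjusted p = 0.0186). For Col1a2 they were -0.06 and 0.80, with an interaction of -0.86 (adjusted p = 0.0278). Those of Lox and Col3a1 passed without any 1 of the 12 arrays. That of Col5a2 was lost without 4 arrays, up to 0.0603 without Fz4-/- control replicate 2, and that of Col1a2 without 9, up to 0.0844 without the same array. Over all alternatives the adjusted p of the interaction was 1.17e-05 to 0.0188 for Lox, 0.00313 to 0.634 for Col3a1, 2.45e-05 to 0.209 for Col5a2 and 0.000595 to 0.339 for Col1a2.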

How the results depend on the processing

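Among 51 called values under 1135 alternatives, 929 kept their direction and side of the threshold, 202 kept the direction but were no longer past it and 4 changed sign. The values called under every alternative were 12, those of Col4a1, Col4a2, Col8a1 and Col19a1 between genotypes on gelatin, Col4a2 and Col8a1 on Matrigel, Lox, Col5a2 and Col1a2 with Norrin in wild type cells, the Lox interaction, Col19a1 with Matrigel in wild type cells and Col16a1 in Fz4-/- cells. With probe sets averaged per gene, Col1a1 (-0.00948) and Col22a1 (0.0225) turned sign with Matrigel in Fz4-/- cells, where 4 genes were called, and 1 was called with Norrin in Fz4-/- cells. Using only probe sets without a cross-hybridization suffix, Col26a1 turned sign with Matrigel (-0.0377 in Fz4-/-, -0.32 in wild type cells), and 5 genes were called in Fz4-/- cells.

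Restricting the test to genes above the median level, which left 11 of the 46 genes in single cultures and 21 in co-cultures, gave 7 calls between genotypes on Matrigel, 1 and 0 with Matrigel in Fz4-/- and wild type cells and 5 with Norrin in wild type cells. Fitting all 24 arrays together gave 14 calls between genotypes on gelatin and 2 for the Norrin interaction. Fitting only the arrays compared gave 8 between genotypes on Matrigel, and 2 and 4 with Norrin in Fz4-/- and wild type cells; for interactions this is the same fit. Leaving out replicate 1 of every group gave 14 calls on gelatin and 1 with Norrin in Fz4-/- cells. Averaging replicates 2 and 3 gave 4 calls on gelatin, 3 between genotypes on Matrigel, 1 and 2 with Matrigel in Fz4-/- and wild type cells, 4 with Norrin in wild type cells and 1 interaction. Some of these fits hold fewer genes or arrays, and the cause of the shifts was not tested.

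The replicate block gave 14 calls on gelatin, where calls among all genes rose from 2719 to 4138. The block also added the Col11a1 interaction with Norrin (-0.84, adjusted p = 0.0402), and beside the calls given with their genes it changed no other. Whether the replicate numbers pair arrays is not known. Between genotypes 4 of 6 arrays on gelatin and 5 of 6 on Matrigel correlated best with their own number. For Matrigel against gelatin 3 of 6 did in Fz4-/- and 2 of 6 in wild type cells. With Norrin 0 of 6 did in Fz4-/- and 4 of 6 in wild type cells.

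Leaving out 1 array at a time, 26 of the 51 calls held throughout. The calls ranged over 6 to 13 for genotype on gelatin, 6 to 14 on Matrigel, 3 to 8 and 6 to 10 for Matrigel in Fz4-/- and wild type cells, 0 to 1 and 4 to 10 for Norrin in Fz4-/- and wild type cells, 2 to 6 for its interaction and 0 to 0 for the Matrigel interaction. Genes below the middle of the array have less signal over background, which limits the reading of Col1a1, Col3a1, Col4a4 and Col19a1. Other called genes also did not lie above the median gene in all arrays of either group compared. In single cultures these were Col5a3, Col6a2, Col6a5, Col9a3, Col11a1, Col16a1, Col22a1, Col23a1, Col24a1, Col26a1 and Loxl1. With Norrin in wild type cells they were Col7a1 and Col11a1.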
